A study of Mus musculus with 12 samples.

Results

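Genomic imprinting was examined across 43 listed imprinted genes in mouse embryonic stem (ES) cells that lack Dicer and in the same cells carrying added DNA methyltransferases. The members were listed by name, by a rule that uses no measured value, although earlier results of these data were known when the list was made. A probe entered when its design name or accession matched a member or its other symbol and it was well above background on 2 or more of 12 arrays. Of the 43 genes, 42 had a probe on the array and 41 had one that passed. Rtl1 had no matched probe, and the probe of Slc22a3 did not pass. The members held 89 of the 41174 probes on the array, of which 78 passed, against 29970 probes that passed in all. The passing probes of the whole array stood for 15995 named genes.

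The labels describe wild-type ES cells, 2 Dicer1-null ES cell clones named 27G5 and 27H10, and derivatives of each clone overexpressing Dnmt1 or Dnmt3a,3b. All cells were grown without feeder cells being named, on gelatin with leukemia inhibitory factor, and total RNA was labelled by T7 amplification. Each array compared 2 RNAs in 2 colours, and each pairing was repeated with the dyes exchanged, so that 12 arrays gave 6 ratios. In both clones, 3 comparisons were made: Dicer-null cells against wild type, and the Dnmt1 and the Dnmt3a,3b derivative against Dicer-null cells. By the labels there were 7 RNAs: 1 wild type, shared by both clones, and 3 in each clone. Each clone was a single line, and both methyltransferase lines of a clone were set against that clone's Dicer-null RNA, which was also the numerator against wild type. The labels name no separate cultures, and p-values therefore measure the spread between these samples, which may be technical.

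An imprinted gene is expressed mainly from the allele of 1 parent. The choice is set by DNA methylation placed on one parental copy of a control region in the germline, and Dnmt1, the maintenance methyltransferase, copies that methylation at each cell division. Dnmt3a and Dnmt3b are the enzymes that methylate unmethylated DNA, and Dicer is the ribonuclease that cuts precursors into microRNAs and small interfering RNAs. At many imprinted clusters methylation of the control region silences a long noncoding RNA and thereby permits expression of neighbouring protein-coding genes, whereas at the Igf2-H19 locus methylation of the paternal copy permits Igf2 and silences H19. In ES cells imprints are known to be prone to loss in culture. The arrays report total RNA, so the 2 parental alleles of a gene were not told apart.

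The letters that the arrays read at these loci show which transcript each value belongs to. H19 is a maternally expressed long noncoding RNA, and its brightest probe lay at chr7:139003144-139003203 on the minus strand of build mm7. Its second probe spanned a splice junction within chr7:139003393-139003540. A probe at Kcnq1, which encodes a potassium channel, lay at chr7:139684939-139684998 on the minus strand, opposite to the Kcnq1 messenger RNA. Kcnq1ot1, the paternally expressed noncoding RNA of this cluster, is known from that strand, but the probe was not matched to it by identifier and is called the antisense-strand probe here. At Gnas, a locus with several differently imprinted transcripts, a probe for the exon 1A noncoding RNA lay at chr2:174077210-174077269 on the plus strand. The 4 probes are given 5′ to 3′, with CpG dinucleotides, the site of methylation, in capitals; only the antisense-strand probe held one.
H19 probe 1: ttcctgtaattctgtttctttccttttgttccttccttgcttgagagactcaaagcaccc
H19 probe 2: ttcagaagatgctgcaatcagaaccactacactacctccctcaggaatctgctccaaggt
Kcnq1 antisense-strand probe: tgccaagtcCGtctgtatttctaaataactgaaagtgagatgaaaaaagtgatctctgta
Gnas exon 1A RNA probe: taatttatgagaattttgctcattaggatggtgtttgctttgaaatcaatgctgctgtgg

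Each value is a log2 ratio after background correction and within-array normalisation, averaged over the 2 dye-swapped arrays of a clone, and an error is the SD over the 2 clones. A gene was called higher or lower when the adjusted p of limma's moderated test (Benjamini-Hochberg over all 29970 probes) was under 0.05, and was represented by its brightest probe. Median spot signals lay between 112 and 135 in green and between 234 and 334 in red, and between 61.6% and 68.6% of probes were above background. The number of arrays limits the precision. The labels were checked against the targeted genes. The probe of Dicer1 that was most reduced stood at -4.07 ± 0.08 (SD, n = 2 clones) in Dicer-null over wild type (adjusted p = 3.98e-05, limma), and the brighter probe at -0.53 ± 0.04. The Dnmt1 probe stood at 0.27 ± 0.23 in the line labelled Dnmt1 and at 0.27 ± 0.07 in the line labelled Dnmt3a,3b (adjusted p = 0.108 in both, limma). The brightest probes of Dnmt3a and Dnmt3b stood at -1.03 ± 0.92 and -1.04 ± 0.59 in the line labelled Dnmt3a,3b. The arrays therefore do not show the overexpression that the labels name, whether a probe lies outside the introduced sequence was not tested, and these lines are called below by their labels.

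In Dicer-null over wild type, 22 of the 41 imprinted genes were lower, 5 were higher and 14 were not called. The 5 include Kcnq1 through its antisense-strand probe. Over all 15995 genes, 21.5% were lower and 21.1% higher, against 53.7% and 12.2% of these 41 imprinted genes. A further list of 19 measured imprinted genes was mixed, with 6 (31.6%) lower, 6 (31.6%) higher and a median of -0.10. The median of the 41 genes stood at -0.67, with -0.47 in clone 27G5 and -0.75 in clone 27H10, while the median of all genes was 0.004. All 27 called members had the same sign on all 4 arrays. In such bulk samples, fewer cells that express a gene and less RNA per cell cannot be told apart.

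Of 7 members grouped as growth regulators, 6 (85.7%) were lower, against 21.5% of all genes. Ndn, a growth-suppressing protein of neurons, was not called at -0.35 ± 0.31. Plagl1, which slows proliferation, was grouped with transcription factors instead and was higher. Phlda2, which restrains growth of the placenta, read -2.90 in clone 27G5 and -2.69 in clone 27H10, a mean of -2.79 ± 0.15 (adjusted p = 0.0012, limma), or 6.94-fold lower. Igf2, the fetal insulin-like growth factor, read -3.01 and -2.38 and fell 6.47-fold (-2.69 ± 0.45; adjusted p = 0.000479, limma). Cdkn1c, which encodes the cyclin-dependent kinase inhibitor p57, read -2.74 and -2.59 and fell 6.34-fold (-2.66 ± 0.11; adjusted p = 0.000459, limma). In these genes both clones lay far below wild type. Both a growth promoter and growth restrainers of this group fell. Grb10, an adaptor that damps insulin and growth factor receptors, read -1.33 and -1.86 (adjusted p = 0.0028, limma). Igf2r, the receptor that clears IGF2, read -0.47 and -0.60 (adjusted p = 0.0343, limma). Dlk1, a Notch-related membrane protein of growth and fat cell development, read -1.0 and -1.43 (adjusted p = 0.00152, limma). The probes of Grb10 disagreed: 1 stood at 0.17 (not called), against -1.60 and -1.30 at the others.

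Receptors and signalling genes followed. Calcr, the calcitonin receptor, read -2.74 and -2.70, a 6.59-fold fall (adjusted p = 0.000101, limma); its second probe stood at -0.66, with the Dicer-null RNA above background on 1 of 4 arrays. Magel2, a ubiquitin ligase regulator of the Prader-Willi region, read -2.68 and -2.69, a 6.44-fold fall (adjusted p = 0.000129, limma). For both genes the 2 clones were almost superimposed at these settings. The sizes depended on the processing: across 17 alternatives Calcr ran from -3.97 to -1.69 and Magel2 from -3.53 to -2.66. Sgce, which encodes ε-sarcoglycan, read -2.04 and -2.07 (adjusted p = 0.000301, limma), and its neighbour Peg10, a retrotransposon-derived gene needed in placenta, read -1.51 and -1.24 (adjusted p = 0.00155, limma). Nnat, a small membrane proteolipid of the developing brain, read -1.26 and -1.52 (adjusted p = 0.000448, limma). Gatm, an enzyme of creatine synthesis, read -1.28 and -1.48 (adjusted p = 0.00066, limma), with the Dicer-null RNA above background on 1 of 4 arrays. Smaller falls were called for Atp10a (-1.15), Gnas (-0.97), Snrpn (-0.78), Slc22a18 (-0.77), Nap1l5 (-0.72), Asb4 (-0.67), Tssc4 (-0.41) and Ascl2 (-0.38). Ascl2 is a transcription factor of the trophoblast lineage, and Snrpn encodes a splicing protein and anchors the Prader-Willi control region.

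Of 3 long noncoding RNAs, 2 were lower, against 21.5% of all genes. H19 read -1.23 and -0.93, a 2.12-fold fall (-1.08 ± 0.21; adjusted p = 0.00137, limma), and its splice-junction probe stood at -1.65. Rian, a small nucleolar RNA host transcript of the Dlk1-Gtl2 cluster, read -0.83 and -0.94 (adjusted p = 0.0409, limma). Gtl2, the maternally expressed RNA of the same cluster, read -0.46 and -0.58 at its brightest probe and was not called (adjusted p = 0.227, limma). Of its other 4 probes, 2 were called lower, at -0.80 and -0.67 (adjusted p = 0.0073 and 0.027, limma), and 2 were not, at -0.45 and -0.13.

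The 5 genes that rose came from different clusters. Plagl1, a zinc finger transcription factor that slows proliferation, read 2.63 and 2.30, a 5.51-fold rise (2.46 ± 0.23; adjusted p = 0.000779, limma), and its second probe stood at 1.37. Ddc, the decarboxylase that makes dopamine and serotonin, read 1.78 and 1.15 (adjusted p = 0.00215, limma). Dio3, which inactivates thyroid hormone, read 0.64 and 0.93 (adjusted p = 0.0205, limma). Peg3, a zinc finger protein, read 0.57 and 0.53 (adjusted p = 0.00342, limma), although its second probe stood at 0.17 and was not called. The antisense-strand probe at Kcnq1 read 0.32 and 0.43 (adjusted p = 0.0177, limma), while the Kcnq1 messenger RNA probe stood at -0.19 (not called). Of the 14 uncalled genes, values ran from -0.73 for Ppp1r9a to 0.45 for Copg2. Of the other 3 Ppp1r9a probes 1 was called lower at -0.48. Another Copg2 probe was called higher at 0.30 (adjusted p = 0.0378, limma). Zim1 and Rasgrf1 were barely above background.

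With a single clone fitted in this comparison, and that ratio assumed to vary like the others, 12 of the 22 falls and 2 of the 5 rises kept their call whichever clone was left out. These 14 genes were Calcr, Cdkn1c, Ddc, Dlk1, Gatm, Grb10, H19, Igf2, Magel2, Nnat, Peg10, Phlda2, Plagl1 and Sgce. Atp10a and Slc22a18 lost their call without clone 27H10 (adjusted p = 0.0966 and 0.0577, limma), and Gnas lost it without clone 27G5 (adjusted p = 0.0641, limma). The other 10 lost it without either clone: Asb4, Ascl2, Dio3, Igf2r, the antisense-strand probe at Kcnq1, Nap1l5, Peg3, Rian, Snrpn and Tssc4, with adjusted p between 0.053 and 0.248 (limma). When the RNA shared between comparisons was modelled, 13 falls and 2 rises kept their call: the same 14 genes and Slc22a18. The clone was also entered as a replicate block, a single clone shift shared by all comparisons. All 27 then kept their call, and Mest, Ndn and Ppp1r9a were called lower as well (adjusted p = 0.0107, 0.0361 and 0.0336, limma). Clone deviations here correlated at only -0.06 and -0.13 with those of the methyltransferase lines, so a shared shift may not hold.

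**Figure D1:**
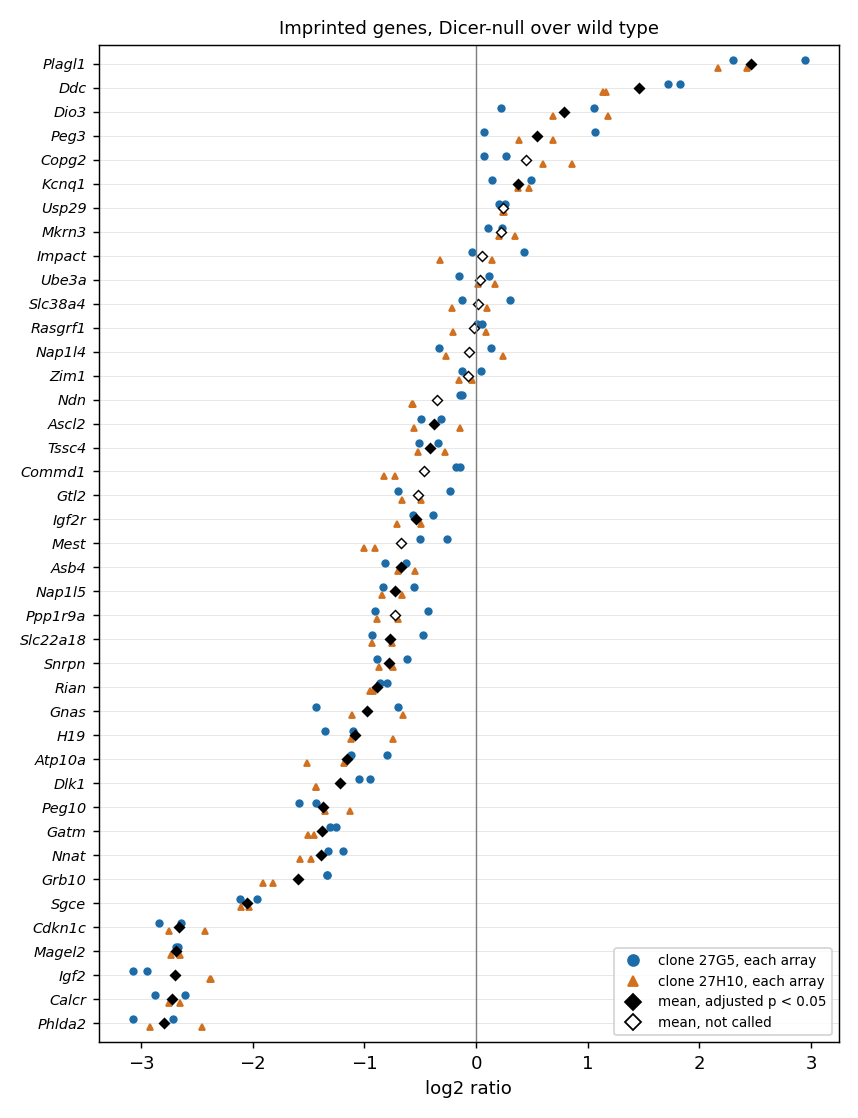
Log2 ratio of Dicer-null over wild type for 41 imprinted genes, ordered by mean. Kcnq1 is shown by its antisense-strand probe. Circles are the 2 arrays of clone 27G5, triangles those of clone 27H10, and diamonds the mean, filled where adjusted p was under 0.05; 22 filled diamonds lie left of 0 and 5 to the right, and Phlda2, Calcr, Igf2, Magel2 and Cdkn1c form the lowest group between -2.79 and -2.66.

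By known expressed allele, 13 of 21 maternally expressed genes (61.9%) were lower and 1 was higher, with a median of -0.67. Over all genes 21.5% were lower and 21.1% higher, which stands beside each count in this paragraph. Which allele these cells expressed was not measured. The 1 counted higher was Kcnq1 through its antisense-strand probe, and with its messenger RNA probe 13 of 21 were lower and 0 higher. Of 19 paternally expressed genes, 8 (42.1%) were lower and 4 (21.1%) higher, with a median of -0.35. The lists are small, and the difference between them was not tested. The lowest members lay on both sides: Phlda2, Calcr and Cdkn1c are maternally expressed, and Igf2, Magel2 and Sgce paternally expressed. By parental origin of the germline mark, 17 of 33 genes under a maternally placed mark were lower and 4 higher, and 4 of 7 under a paternally placed mark were lower and 1 higher. Single clusters were mixed. In the Peg10 cluster 4 of 5 genes were lower, in the Kcnq1 cluster 5 of 7 were lower with the antisense-strand probe higher, and in the Snrpn cluster 3 of 6 were lower. The Grb10 cluster split, with Grb10 lower and Ddc higher. In the Mest cluster neither Mest nor Copg2 was called at its brightest probe, though another Copg2 probe was called higher.

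Promoter sequence was set beside these calls because imprinted control acts on CpG-rich DNA. RefSeq promoters on GRCm38.p6, 300 bases around each start, were matched to 35 members; H19, Cdkn1c, Kcnq1, Nap1l4, Peg10, Sgce, Rtl1 and Impact had none. The motif searched was CG, which reads the same on both strands. The most CpG-rich promoter of a member held a median of 18 CG, and 77.1% held 10 or more, against a median of 8 and 45.8% over 27025 genes. Those genes were not limited to the ones measured here. Counted by single promoter, 60.7% of 56 member promoters held 10 or more (median 14.5), against 43.5% of 32851 (median 7). By call in Dicer-null over wild type, the median was 21 CG in 18 lower genes, 17.5 in 12 uncalled genes and 19 in 4 higher genes, so the groups' medians lay close together. The gene that rose most, one that fell most and the most CpG-rich of the 4 Igf2 promoters are shown, with CG in capitals and in the direction of transcription. Plagl1 lies at chr10:13090582-13090881 (plus strand, 26 CG), Phlda2 at chr7:143502475-143502774 (minus strand, 26 CG) and Igf2 at chr7:142658755-142659054 (minus strand, 24 CG). Plagl1 and Phlda2 thus hold the same number of CG and moved in opposite directions; no methylation was measured.
Plagl1: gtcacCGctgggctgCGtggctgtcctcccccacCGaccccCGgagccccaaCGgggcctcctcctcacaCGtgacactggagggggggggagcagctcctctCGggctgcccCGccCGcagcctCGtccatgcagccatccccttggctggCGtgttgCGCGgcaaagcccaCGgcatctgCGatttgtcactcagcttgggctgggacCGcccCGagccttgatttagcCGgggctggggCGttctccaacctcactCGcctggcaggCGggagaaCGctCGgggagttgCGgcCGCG
Phlda2: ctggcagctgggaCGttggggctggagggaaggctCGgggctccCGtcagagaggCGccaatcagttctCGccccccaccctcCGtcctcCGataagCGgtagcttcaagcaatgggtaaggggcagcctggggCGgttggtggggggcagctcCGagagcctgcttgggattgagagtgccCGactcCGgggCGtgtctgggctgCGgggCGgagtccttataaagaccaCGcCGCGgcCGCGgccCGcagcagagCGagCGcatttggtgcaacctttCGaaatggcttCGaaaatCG
Igf2: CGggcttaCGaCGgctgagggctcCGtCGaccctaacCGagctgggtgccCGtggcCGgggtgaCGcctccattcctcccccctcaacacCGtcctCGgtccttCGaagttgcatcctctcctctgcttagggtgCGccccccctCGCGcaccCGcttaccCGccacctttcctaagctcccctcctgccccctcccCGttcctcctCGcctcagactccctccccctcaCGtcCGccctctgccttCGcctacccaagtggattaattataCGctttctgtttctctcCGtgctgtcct

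In the line labelled Dnmt1, 7 of 41 imprinted genes were higher than in Dicer-null cells. Another 4 were lower, Kcnq1 through its antisense-strand probe among them, and 30 were not called. Those shares, 17.1% and 9.76%, lay near the 13.4% and 10.1% of all genes. The median imprinted gene stood at 0.12 (0.10 in clone 27G5 and 0.06 in clone 27H10), against 0.02 for all genes. With arrays centred on the median in place of loess the split was 9 higher and 2 lower, and in the deposited value table it was 9 and 3.

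The strongest rises were in Cdkn1c, Sgce, H19 and Igf2. Cdkn1c read 2.49 in clone 27G5 and 1.73 in clone 27H10, a 4.32-fold rise (2.11 ± 0.54; adjusted p = 0.00362, limma). Sgce read 2.28 and 1.80, a 4.12-fold rise (2.04 ± 0.34; adjusted p = 0.00184, limma). H19 read 1.94 and 2.06, a 4.01-fold rise (2.00 ± 0.08; adjusted p = 0.00178, limma), and its splice-junction probe stood at 3.06. Both H19 probes printed above thus rose. Igf2 read 1.67 and 1.28, a 2.77-fold rise (1.47 ± 0.28; adjusted p = 0.00779, limma), with the second probe at 1.36. H19 and Igf2, which share enhancers and are expressed from opposite parental alleles, were thus higher together in both clones. Copg2, a vesicle coat subunit, read 1.25 and 0.74 (adjusted p = 0.0378, limma). Its reading is uncertain, since 2 of its 3 probes lay beside the Mest 3′ probe on the opposite strand, though the remaining probe was also called at 0.64. Dlk1 read 0.59 and 0.76 (adjusted p = 0.0204, limma), and Peg10 read 0.58 and 0.57 (adjusted p = 0.0436, limma).

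Slc22a18, an organic cation transporter of the Kcnq1 cluster, read -0.75 and -0.55 (adjusted p = 0.0131, limma), but its second probe stood at -0.17 and was not called. Nnat read -0.52 and -0.31 (adjusted p = 0.0333, limma), the antisense-strand probe at Kcnq1 -0.23 and -0.45 (adjusted p = 0.0386, limma), and Peg3 -0.39 and -0.22 (adjusted p = 0.0394, limma), with 1 of 4 arrays of the other sign. These 4 falls were modest. Among the uncalled genes, Ndn read 1.12 and 0.54 (adjusted p = 0.0551, limma) and Atp10a, a phospholipid flippase, 0.69 and 0.75 (adjusted p = 0.0515, limma). Phlda2 lay on opposite sides of 0 in the clones, at 0.46 and -0.78. The 30 uncalled genes ran from -0.52 for Mest to 0.83 for Ndn. By expressed allele, 3 of 21 maternally and 4 of 19 paternally expressed genes were higher and 2 of each were lower, against 13.4% and 10.1% of all genes. With the messenger RNA probe of Kcnq1 in place of the antisense-strand probe, 1 of 21 maternally expressed genes was lower.

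Leaving out either clone kept the calls of Cdkn1c, H19, Igf2, Sgce and Slc22a18. Dlk1 and the antisense-strand probe at Kcnq1 lost theirs without clone 27H10 (adjusted p = 0.104 and 0.181, limma). Copg2, Nnat, Peg10 and Peg3 lost theirs without either clone, with adjusted p between 0.0583 and 0.163 (limma). With the clone as a replicate block, Peg10, Nnat, Peg3 and the antisense-strand probe at Kcnq1 were not called (adjusted p = 0.0575, 0.0513, 0.0622 and 0.0564, limma), while Atp10a and Ndn were called higher and Mest lower (adjusted p = 0.0339, 0.00891 and 0.0376, limma). With the shared RNA modelled, only Cdkn1c, H19, Igf2 and Sgce kept theirs (adjusted p between 0.0217 and 0.0493, limma).

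In the line labelled Dnmt3a,3b, 4 imprinted genes were higher than in Dicer-null cells. Another 5 were lower, Kcnq1 through its antisense-strand probe among them, and 32 were not called. The shares were 9.76% higher and 12.2% lower, against 12.1% and 9.21% of all genes. The median imprinted gene stood at -0.02 (0.03 and 0.07 in the clones) against 0.03 for all genes, and with median centring the split was 7 higher and 3 lower. The called rises were in H19, Cdkn1c, Igf2 and Sgce, and the 32 uncalled genes ran from -0.69 for Phlda2 to 0.72 for Atp10a. Copg2 was not called at its brightest probe, at 0.69. Its probe away from Mest was called higher at 0.61 (adjusted p = 0.0096, limma). By expressed allele, 2 of 21 maternally expressed genes were higher and 4 lower (3 with the messenger RNA probe of Kcnq1), and 2 of 19 paternally expressed genes were higher and 1 lower.

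H19 read 1.99 and 1.70, a 3.59-fold rise (1.84 ± 0.20; adjusted p = 0.00223, limma), with the splice-junction probe at 2.73. Cdkn1c read 1.95 and 1.66, a 3.49-fold rise (1.81 ± 0.20; adjusted p = 0.00493, limma). Igf2 read 1.91 and 1.48, a 3.23-fold rise (1.69 ± 0.31; adjusted p = 0.00597, limma). Both clones lay well above their Dicer-null parent in these genes. Sgce read 1.46 and 1.49, a 2.78-fold rise (1.48 ± 0.02; adjusted p = 0.00327, limma). Among the falls, Ppp1r9a, a neuronal actin-binding protein, read -1.40 and -0.52 at its brightest probe (adjusted p = 0.0462, limma), while its other 3 probes stood between -0.24 and -0.10 and were not called. Slc22a18 read -0.80 and -0.49 (adjusted p = 0.0133, limma). Ube3a, the ubiquitin ligase of Angelman syndrome, read -0.63 and -0.42 (adjusted p = 0.0163, limma), and its 3 probes all passed, between -0.52 and -0.45. Peg3 read -0.43 and -0.51 (adjusted p = 0.0133, limma), with 1 of 4 arrays of the other sign, and the antisense-strand probe at Kcnq1 read -0.43 and -0.49 (adjusted p = 0.0179, limma).

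None of the 5 falls in this line was called with either clone left out (adjusted p between 0.0672 and 0.33, limma). The 4 rises kept their direction, but without clone 27G5 their adjusted p lay between 0.0582 and 0.0858, and without clone 27H10 H19 alone remained called (adjusted p = 0.0483, limma; the others between 0.0558 and 0.0582). With the shared RNA modelled the 4 rises remained called, at adjusted p between 0.0296 and 0.0416 (limma), and none of the 5 falls did. With the clone as a replicate block all 9 calls held, and Atp10a and Ndn were called higher and Mest lower as well (adjusted p = 0.0349, 0.0128 and 0.0366, limma).

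**Figure D2:**
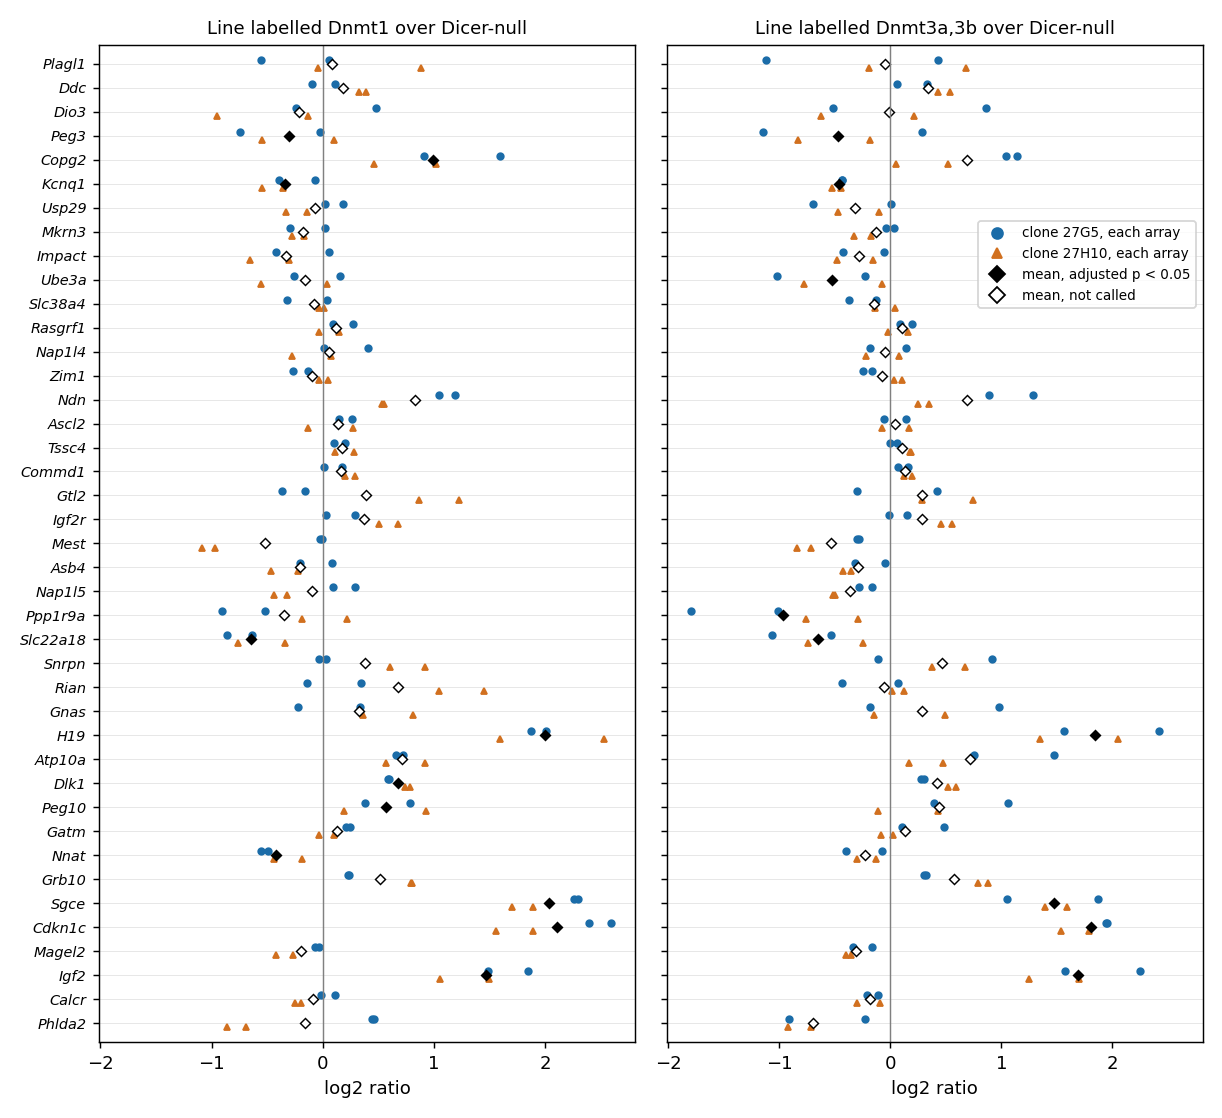
Log2 ratio of the line labelled Dnmt1 (left) and of the line labelled Dnmt3a,3b (right) over Dicer-null cells, for the 41 imprinted genes in the order of their Dicer-null over wild type mean. Kcnq1 is shown by its antisense-strand probe. Circles and triangles are single arrays of clones 27G5 and 27H10, and diamonds are means, filled where adjusted p was under 0.05; Cdkn1c, Sgce, H19 and Igf2 stand apart at 1.47 or more in both panels, and most other genes lie near 0.

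No array held the RNAs of both methyltransferase lines. Compared through their shared Dicer-null RNA, the lines labelled Dnmt3a,3b and Dnmt1 differed in 0 of 41 imprinted genes by the adjusted limma test, as in 0 of all genes (0% higher and 0% lower). At an unadjusted p under 0.05, Sgce and Ube3a differed, 2 of 41, against 159 of 15995 genes (0.994%). Sgce differed by -0.56, with a 95% interval from -0.99 to -0.14, and Ube3a by -0.37, from -0.69 to -0.05. For Cdkn1c the difference was -0.31 (-0.95 to 0.34), for H19 -0.16 (-0.55 to 0.23) and for Igf2 0.22 (-0.45 to 0.89). The intervals of Cdkn1c, H19 and Igf2 include 0, which does not show that the lines are alike in these genes.

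Levels relative to wild type were obtained within each clone by adding the ratio of a line over Dicer-null to that of Dicer-null over wild type. They share the Dicer-null RNA and are given as values, with no test. H19 went from -1.23 and -0.93 in Dicer-null cells to 0.72 and 1.13 in the line labelled Dnmt1 and to 0.76 and 0.77 in the line labelled Dnmt3a,3b, above wild type in all 4. Sgce went from -2.04 and -2.07 to 0.25 and -0.27 with Dnmt1 and to -0.58 in both clones with Dnmt3a,3b. Cdkn1c reached -0.25 and -0.86, and -0.79 and -0.93. Igf2 stayed below wild type in all lines, at -1.34 and -1.10, and -1.10 and -0.90.

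Other strongly reduced genes stayed low. Phlda2 stood at -2.44 and -3.47 in the line labelled Dnmt1 and at -3.47 and -3.51 in the line labelled Dnmt3a,3b. Calcr stood between -2.92 and -2.69 in the 4 lines, and Magel2 between -3.07 and -2.73. Plagl1 stayed high, between 2.28 and 2.72. Of the 22 genes lower in Dicer-null cells, 6 were higher, 2 lower and 14 not called in the line labelled Dnmt1, and 4, 1 and 17 in the line labelled Dnmt3a,3b. Of the 5 genes higher in Dicer-null cells, Peg3 and the antisense-strand probe at Kcnq1 were lower in each line and 3 were not called. These counts compare ratios that share the Dicer-null RNA, whose own error enters them with opposite signs. The matching counts over all genes called in Dicer-null cells were not made. No trait of the imprinted genes is therefore read from them.

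**Figure D3:**
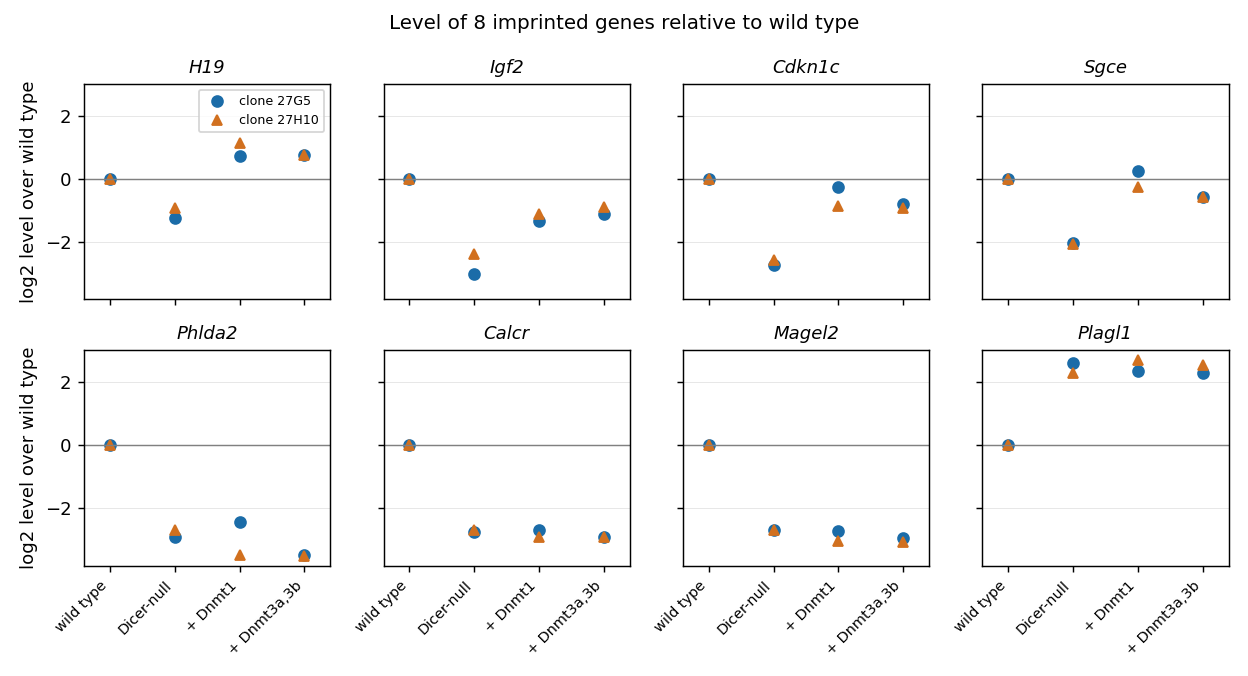
Log2 level relative to wild type (set to 0) of 8 imprinted genes in Dicer-null cells and in the lines labelled Dnmt1 and Dnmt3a,3b. Circles are clone 27G5 and triangles clone 27H10; H19 moves from below to above 0, Igf2, Cdkn1c and Sgce move up from the Dicer-null level, Phlda2, Calcr and Magel2 stay at -2.44 or lower, and Plagl1 stays at 2.28 or higher.

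Along distal chromosome 7, where 2 adjoining imprinted domains lie, neighbours moved differently. The Igf2 probe lay 74.9 kb from that of H19, and both genes fell in Dicer-null cells and rose in the methyltransferase lines. At the near end of the Kcnq1 cluster, Ascl2 at 392.7 kb and Tssc4 at 495 kb fell by 0.38 and 0.41 in Dicer-null cells and were not called in either line. Cdkn1c at 883 kb and Phlda2 at 925.7 kb fell alike in Dicer-null cells, but only Cdkn1c was called higher in the lines. The difference between these 2 genes was not tested. Of the 2 Slc22a18 probes between them, only the one at 923.4 kb was called, and all 3 probes of Nap1l4, a histone chaperone at the edge of the domain, were small in size. The antisense-strand probe ran opposite to Cdkn1c in all 3 comparisons, at 0.37 in Dicer-null over wild type and at -0.34 and -0.46 in the lines. All of its ratios share the Dicer-null RNA with those of Cdkn1c. With that RNA modelled, none of its 3 calls held (adjusted p = 0.156, 0.157 and 0.0953, limma). The Slc22a18 probe at 923.4 kb also read below 0 in the lines, at -0.65 and -0.65. The other Slc22a18 probe stood at -0.17 in both lines and was not called. Phlda2, not called, had means of -0.16 and -0.69, but in the line labelled Dnmt1 its clones read 0.46 and -0.78.

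**Figure D4:**
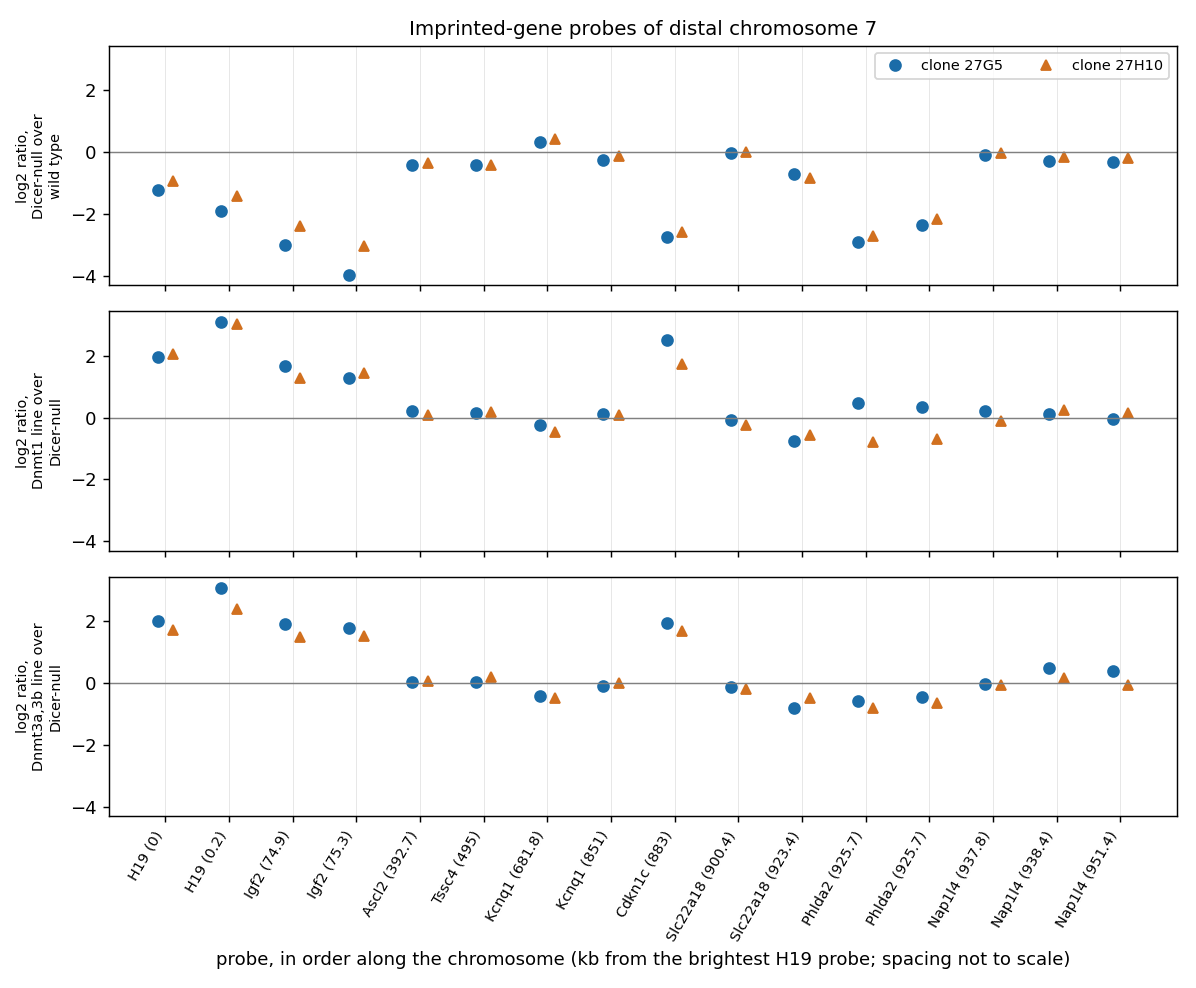
Log2 ratio of each imprinted-gene probe of distal chromosome 7 in order along the chromosome, with its distance in kb from the brightest H19 probe (spacing not to scale); the probe labelled Kcnq1 at 681.8 kb is the antisense-strand probe. Circles are clone 27G5 and triangles clone 27H10; H19, Igf2 and Cdkn1c are low in the top panel and high in the lower panels, and Phlda2 is low in the top panel and not above 0 in both clones in either lower panel.

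In the Dlk1-Gtl2 domain of chromosome 12, probes of one noncoding gene disagreed. The Gtl2 probes at 89.3 and 111 kb from Dlk1 and the Rian probe at 198.9 kb read, in the line labelled Dnmt1, 1.35, 1.05 and 1.25 in clone 27H10 but -0.36, -0.26 and 0.10 in clone 27G5. The Gtl2 probes at 98.5, 100.9 and 102.2 kb and the Rian probe at 190.4 kb lay below 0 in both clones, with means of -0.38, -0.48, -0.37 and -0.49, none called. These same 4 probes in the line labelled Dnmt3a,3b read -0.45, -0.72, -0.64 and -0.90, of which those at 100.9 and 190.4 kb were called (adjusted p = 0.0209 and 0.0123, limma). Which transcript or isoform each probe reads was not resolved. Dlk1 was more uniform: its second probe stood at -0.91 in Dicer-null over wild type, 0.62 in the line labelled Dnmt1 and 0.55 in the line labelled Dnmt3a,3b, where it was called (adjusted p = 0.0404, limma) and the brightest probe at 0.42 was not.

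**Figure D5:**
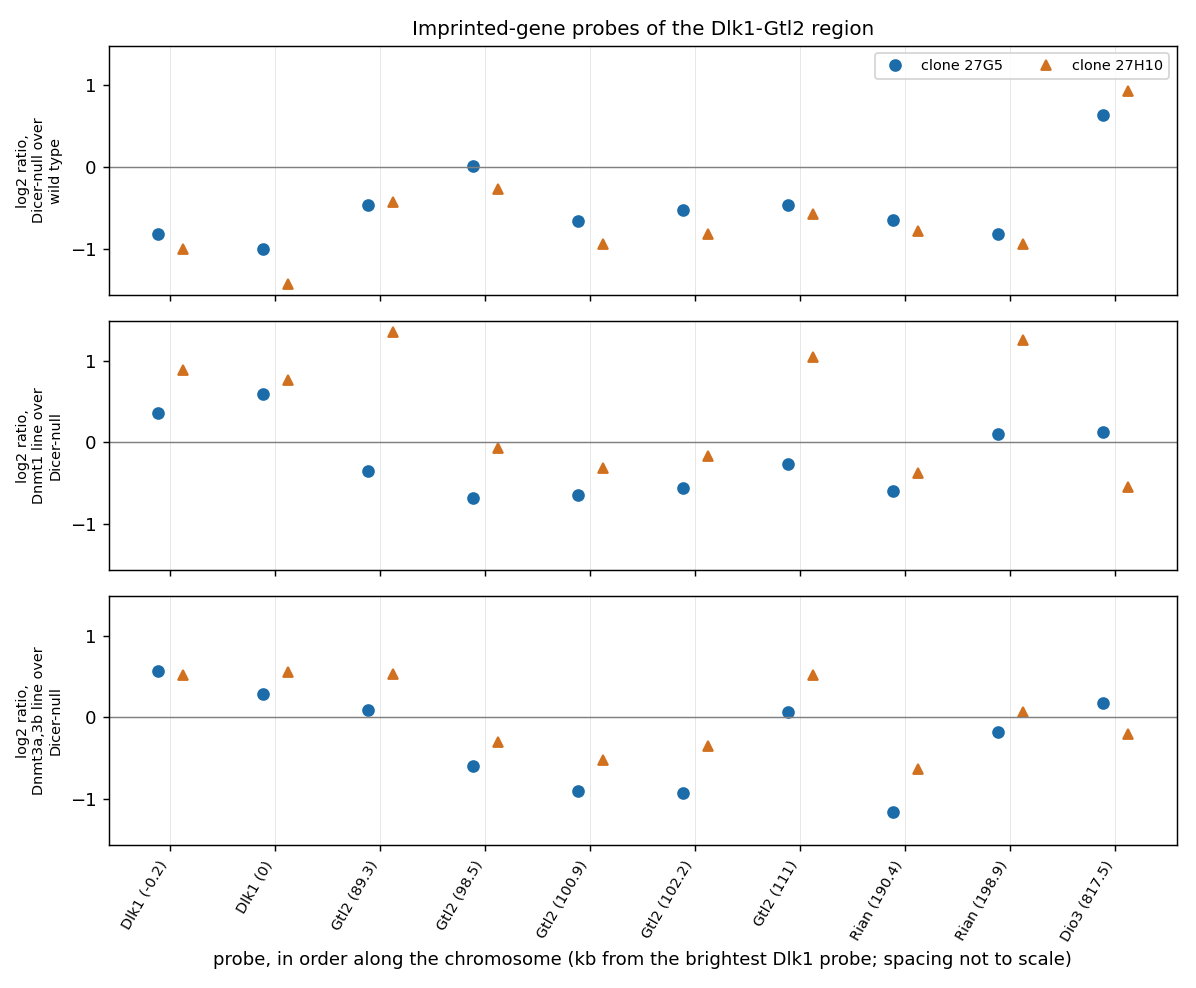
Log2 ratio of each imprinted-gene probe of the Dlk1-Gtl2 domain in order along the chromosome, with its distance in kb from the brightest Dlk1 probe (spacing not to scale). Circles are clone 27G5 and triangles clone 27H10; in the middle panel 3 probes of Gtl2 and Rian are near 1 or above in clone 27H10 alone, and the 4 probes between or beside them lie below 0 in both clones.

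Gnas also showed separate transcripts. Its shared 3′ probes, which read the stimulatory G protein α subunit among others, stood at -0.97 and -0.93 in Dicer-null over wild type, and the exon 1A RNA probe printed above stood at -0.63 (adjusted p = 0.0023, limma). The XLαs probe stood at -0.23 and was not called (adjusted p = 0.082, limma). Across all 23 members with more than 1 passing probe, probes had opposite signs in 5 members in Dicer-null over wild type, in 8 in the line labelled Dnmt1 and in 6 in the line labelled Dnmt3a,3b. They lay more than 1 log2 unit apart in 3, 2 and 1 members.

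Genes that place or keep imprints were described from a list of 20, all measured. In Dicer-null cells 9 (45%) were higher and 3 (15%) lower (median 0.24), against 21.1% and 21.5% of all genes. Arid4a stood at 1.38 ± 0.05, Setdb1, a histone methyltransferase, at 0.89 ± 0.16 and Tet2, which oxidises methylcytosine, at 0.56 ± 0.04. Dnmt3b was among the lower, at -1.23 ± 0.30 (adjusted p = 0.0111, limma). At their brightest probes, Dnmt3a at -0.88 ± 0.24 and Dnmt1 at 0.29 ± 0.04 were not called (adjusted p = 0.0903 and 0.0618, limma). The line labelled Dnmt1 had 1 (5%) higher and 5 (25%) lower (median -0.14), against 13.4% and 10.1% of all genes. Dppa3, an oocyte protein that shields maternal methylation, rose by 1.61 ± 0.65 there, and Dnmt3b stood at -1.06 ± 0.40. The line labelled Dnmt3a,3b had none higher and 3 (15%) lower: Arid4b, Arid4a and Dnmt3b. Of all genes 12.1% were higher and 9.21% lower in that line.

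Of 18 IGF signalling genes, 15 were measured. In Dicer-null cells 6 (40%) were lower and 4 (26.7%) higher (median -0.32), against 21.5% and 21.1% of all genes. Irs1, the insulin receptor substrate, stood at -2.63 ± 0.10, the binding protein Igfbp3 at -2.49 ± 0.11 and the receptor Igf1r at -1.24 ± 0.06. The line labelled Dnmt1 had 3 higher and 1 lower, and the line labelled Dnmt3a,3b 2 higher and 1 lower. These shares, 20.0% and 6.67% in the first and 13.3% and 6.67% in the second, lie near those of all genes. Igfbp6 rose in both, by 0.86 ± 0.22 and 1.22 ± 0.26.

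Markers of cell types were read in the same comparisons, and their lists moved differently. Of 13 measured trophoblast markers, 7 (53.8%) were lower and 2 (15.4%) higher in Dicer-null cells, against 21.5% and 21.1% of all genes. The median was -0.41 (-0.51 and -0.34 in the clones), and Tpbpa was never above background there. With Dnmt1 on the label 8 (61.5%) were higher and none lower, against 13.4% and 10.1% of all genes (median 1.24, with 1.52 and 1.37 in the clones). With Dnmt3a,3b 9 (69.2%) were higher and none lower, against 12.1% and 9.21% (median 1.5, with 1.26 and 1.47). Krt7 stood at -2.35, 2.81 and 2.72 in the 3 comparisons. Of imprinted members known from trophoblast, Cdkn1c, Igf2 and H19 were called higher in both lines, whereas Phlda2 and Ascl2 were called in neither. A link between the trophoblast markers and the imprinted genes was not tested.

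Of 21 measured fibroblast markers, 11 (52.4%) were lower and 3 (14.3%) higher in Dicer-null cells, against 21.5% and 21.1% of all genes. The median was -0.53 (-0.24 and -0.86 in the clones). Tagln stood at -4.20 and Col1a1 at -4.09, while Dcn was among the higher, with its values given under other observations. The medians of the fibroblast list were 0.01 and 0.05 in the lines, where Col6a1, Postn and Twist2 were never above background. Of 15 primitive endoderm markers, 8 (53.3%) were lower and 1 (6.67%) higher in Dicer-null cells (median -0.41). In the line labelled Dnmt1 5 (33.3%) were higher and 2 (13.3%) lower (0.32), against 13.4% and 10.1% of all genes. In the line labelled Dnmt3a,3b 5 (33.3%) were higher and 1 (6.67%) lower (0.18), against 12.1% and 9.21%. Of 19 pluripotency markers, 12 (63.2%) were higher and 1 (5.26%) lower in Dicer-null cells (0.71), with Lin28a the exception at -3.24. The medians of this list were 0.06 in the line labelled Dnmt1 and 0.07 in the line labelled Dnmt3a,3b. The part of these markers in the results for imprinted genes was not tested.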

How the data were processed

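Scanner files of 12 two-colour Agilent arrays were used. Per the file headers, their mean signal and background intensity came from Feature Extraction 9.5.1.1 (arrays of the methyltransferase lines) or 9.1.3.1 (arrays with wild type), and they also held a log10 ratio of processed signals. The authors' deposited value table was on the log2 scale; it matched the scanner ratios (r = 0.968 to 1.00 across probes), its column medians lay between -0.13 and 0.17 and its centring is not stated. Probe positions are on mm7 per the file headers.

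Intensities were corrected in R 4.3.3 with limma 3.58.1 by normexp (offset 50) and normalised by loess within each array, which assumes that most genes do not change. Spots of a probe were averaged, ratios turned to one direction, and dye-swapped pairs averaged, giving 6 ratios. lmFit with 1 coefficient per comparison (3 residual degrees of freedom) and eBayes were run on 29970 probes and tested first on simulated data. A member's value is that of its brightest probe; all members are named or counted. The clone names pair the ratios, since each clone's Dicer-null RNA enters all of its ratios. Clone deviations correlated across probes at 0.35 between the methyltransferase comparisons and at -0.06 and -0.13 between these and Dicer-null over wild type, which that shared RNA affects. The arrays of the lines lay on 1 slide per clone, so slide and clone cannot be told apart there. Alternatives covered background, normalisation, filters, probe choice, arrays, clones, the clone as a block (a single shift shared by all comparisons) and shared RNA. The members and lists were chosen with earlier results of these data known.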

Additional observations from a re-analysis of the deposited data

Results flagged for a closer look

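In 5 cases both arrays of one clone lay on one side of 0 and both arrays of the other clone on the other side; the difference between clones was not tested. Clone 27H10 minus clone 27G5 was, in the line labelled Dnmt1 over Dicer-null, 1.31 for Gtl2, -1.23 for Phlda2, -0.57 for Nap1l5 and -0.34 for Usp29. It was 0.27 for Zim1, whose probe was barely above background, in the line labelled Dnmt3a,3b over Dicer-null. Phlda2 read 0.45 and 0.46 on the arrays of clone 27G5 and -0.86 and -0.69 on those of clone 27H10, and Gtl2 read -0.16 and -0.37 against 1.23 and 0.87.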

How the results depend on the processing

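Of the 47 calls, 24 were lost without clone 27G5, 26 without clone 27H10 and 24 with the shared RNAs modelled. In Dicer-null over wild type, leaving out a clone gave 13 to 15 lower and 2 to 2 higher genes, modelling the shared RNAs gave 13 and 2, and the arrays numbered 2 alone gave 3 higher. For the line labelled Dnmt1, leaving out a clone gave 4 to 9 higher and 1 to 4 lower genes, and modelling the shared RNAs gave 4 and 0. The lower genes there also numbered 2 with median centring, 1 with the arrays numbered 1 alone, 2 with the clone as a replicate block (Slc22a18 and the added call of Mest), and 1 when the overexpression arrays were fitted alone, an alternative chosen after seeing the data. For the line labelled Dnmt3a,3b, leaving out a clone gave 0 to 1 higher and 0 to 0 lower genes. The higher genes numbered 7 with median centring and 8 with the arrays numbered 1 alone, and the lower genes 3 with median centring and 0 with the shared RNAs modelled. Peg3 changed sign with the arrays numbered 1 alone, to 0.036 in the line labelled Dnmt1 and 0.049 in the line labelled Dnmt3a,3b; the cause was not tested. The replicate block ended 4 calls, all in the line labelled Dnmt1, and added Mest and Ndn in all 3 comparisons, Atp10a in both lines and Ppp1r9a in Dicer-null over wild type; it changed no other call. The comparison of the 2 lines gave 0 calls in every setting run. Signals near background limit Zim1, Rasgrf1 and, in Dicer-null cells, Gatm. In Dicer-null over wild type, Gatm ran from -3.03 to -1.28 and Peg10 from -2.69 to -1.24 across the alternatives.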

Other observations

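A further list of 26 imprinted genes outside the 43, of which 19 were measured, was mixed in Dicer-null over wild type. There 6 (31.6%) were higher and 6 (31.6%) lower, against 21.1% and 21.5% of all genes, with a median of -0.10. Osbpl5, a lipid-binding protein gene at the edge of the Kcnq1 domain, stood at -2.14 ± 0.19 (SD, n = 2 clones), Ins2, an insulin gene beside Igf2, at -0.99 ± 0.12 and Inpp5f at -0.80 ± 0.01. Dcn, which encodes the matrix proteoglycan decorin and is also on the fibroblast list, stood at 2.02 ± 0.28, then at -2.45 ± 0.06 in the line labelled Dnmt1 and -2.52 ± 0.15 in the line labelled Dnmt3a,3b.

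Of the 19, 5 (26.3%) were higher and 2 (10.5%) lower in the line labelled Dnmt1, against 13.4% and 10.1% of all genes. In the line labelled Dnmt3a,3b 4 (21.1%) were higher and 3 (15.8%) lower, against 12.1% and 9.21% of all genes. Pon3 and Pon2, paraoxonase genes that lie near Peg10 and Sgce, stood at 1.42 ± 0.06 and 0.80 ± 0.01 in the first and at 1.36 ± 0.09 and 0.77 ± 0.17 in the second. H13, a signal peptide peptidase, stood at 0.60 ± 0.01 and 0.68 ± 0.09. All values named here passed the limma test at an adjusted p under 0.05.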
